A study of Homo sapiens with 8 samples.

Results

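The genes described here are those of the interferon response and of antigen presentation in hCMEC/D3. This is an immortalised cell line from the endothelium of human brain microvessels, grown in culture to model the blood-brain barrier. A gene belonged to the set if its symbol began with HLA-, if it was an IFIT, IFITM, OAS or IRF family gene, or if it was on a list of receptors, kinases, effectors, RNA sensors and peptide supply genes. This gave 79 of the 23346 genes in the deposited table. Polyadenylated RNA from 8 replicates of the line was sequenced. All 8 libraries formed 1 group, with no treatment, cytokine or time point named in the labels, so there was no comparison between conditions. The labels did not say whether the replicates were separate cultures, and every p-value below therefore measures only the spread between these libraries, which may be technical. The line is also 1 genetic background.

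Type I interferons are secreted when a cell senses foreign nucleic acid. They bind a receptor made of IFNAR1 and IFNAR2, and interferon gamma binds one made of IFNGR1 and IFNGR2. At the type I receptor, the bound kinases JAK1 and TYK2 then activate STAT proteins. STAT2 joins with IRF9 in a complex that binds the interferon-stimulated response element (ISRE) in the promoters of antiviral genes. Interferon gamma acts through a different element, the gamma-activated site (GAS). Interferons also raise the genes of antigen presentation. Class I molecules display peptides from inside the cell to CD8+ T cells and are made by nearly all nucleated cells, while class II molecules display peptides to CD4+ T cells and are made mainly by professional antigen-presenting cells. Brain endothelium is of interest in both because it meets circulating T cells.

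Promoter windows are shown first, since many of the most abundant members share the ISRE letters in them. RefSeq promoter windows of 300 bases (250 before the start and 50 after it, GRCh38.p14 table) were found for 58 of the 79 members. The ISRE was searched as GAAANNGAAA on both strands, and overlapping matches were counted. It was present in the windows of 23 of the 58 members (39.7%), against 4.38% of all 27305 genes with a window and 3.57% of all 35116 windows. By role, 15 of 19 antiviral effectors and 5 of 6 peptide supply genes held it, as did 2 of 6 class I chains and 1 of 2 RNA sensors, against 0 of 13 class II genes, 0 of 5 receptor and kinase genes and 0 of 6 IRF and STAT genes. The following windows belong to antiviral effectors with high levels in these libraries and to B2M, the light chain shared by all class I molecules. All of them hold the ISRE letters, and they do not follow a ranking by level. For a gene with several windows, the one with most matches before the start is shown. RSAD2 also had a window without the letters, and the detected effectors OAS1 and IFI35 held none in theirs. The windows of HLA-B and HLA-C, also among the most abundant members, held no such letters. The windows shown are given 5′ to 3′ on the strand of the gene. They were placed on GRCh37 by exact match and trimmed to the bases outside any listed gene, and the capitals mark the ISRE letters.
ISG15, chr1:948677-948846, plus strand: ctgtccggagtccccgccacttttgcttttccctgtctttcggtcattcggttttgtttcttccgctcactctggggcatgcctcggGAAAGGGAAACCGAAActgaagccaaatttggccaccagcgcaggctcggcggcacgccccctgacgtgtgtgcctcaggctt
IFI6, chr1:27998725-27998903, minus strand: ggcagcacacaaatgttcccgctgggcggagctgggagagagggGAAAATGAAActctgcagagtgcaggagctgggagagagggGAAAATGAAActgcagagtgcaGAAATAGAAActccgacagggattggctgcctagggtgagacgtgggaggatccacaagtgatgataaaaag
IFI27, chr14:94576882-94577078, plus strand: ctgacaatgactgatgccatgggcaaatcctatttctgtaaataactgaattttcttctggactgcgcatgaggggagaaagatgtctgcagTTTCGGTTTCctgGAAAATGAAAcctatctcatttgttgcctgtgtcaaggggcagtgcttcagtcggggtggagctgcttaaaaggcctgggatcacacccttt
BST2, chr19:17516440-17516639, minus strand: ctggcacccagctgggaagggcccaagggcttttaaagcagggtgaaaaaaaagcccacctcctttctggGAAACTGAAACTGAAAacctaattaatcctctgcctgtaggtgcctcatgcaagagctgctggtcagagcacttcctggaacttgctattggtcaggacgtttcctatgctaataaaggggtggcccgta
IFIT1, chr10:91152180-91152321, plus strand: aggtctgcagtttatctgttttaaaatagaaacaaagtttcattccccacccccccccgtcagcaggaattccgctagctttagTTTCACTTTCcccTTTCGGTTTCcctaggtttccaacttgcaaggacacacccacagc
OAS3, chr12:113376079-113376248, plus strand: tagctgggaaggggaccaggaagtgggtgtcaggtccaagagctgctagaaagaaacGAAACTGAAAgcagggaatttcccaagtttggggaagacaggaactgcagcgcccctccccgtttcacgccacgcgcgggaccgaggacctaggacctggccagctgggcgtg
RSAD2, chr2:7017708-7017795, plus strand: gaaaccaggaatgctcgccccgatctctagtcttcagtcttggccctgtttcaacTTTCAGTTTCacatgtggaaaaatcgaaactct
B2M, chr15:45003515-45003684, plus strand: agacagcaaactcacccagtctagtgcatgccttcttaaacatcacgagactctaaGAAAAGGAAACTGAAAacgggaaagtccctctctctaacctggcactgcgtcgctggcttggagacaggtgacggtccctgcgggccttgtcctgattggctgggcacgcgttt
In ISG15, BST2 and B2M a pair of matches overlapped, so the capitals run as 1 block. Counted from the RefSeq start, with -1 the base before it, the matches began at -113 and -107 in ISG15, at -156, -115 and -93 in IFI6, and at -116 and -103 in IFIT1. The repeated unit in IFI6 is visible as the same stretch of letters before its first and second match. A match describes letters only and does not show that a factor bound there.

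The GAS was searched as TTCNNNGAA, which reads the same on both strands. It was present in 12 of the 58 members with a window, against 9.38% of all genes. The window of IRF1, a transcription factor that carries interferon gamma signals on to class I genes, is shown because it held GAS letters and no ISRE letters.
IRF1, chr5:131826466-131826665, minus strand: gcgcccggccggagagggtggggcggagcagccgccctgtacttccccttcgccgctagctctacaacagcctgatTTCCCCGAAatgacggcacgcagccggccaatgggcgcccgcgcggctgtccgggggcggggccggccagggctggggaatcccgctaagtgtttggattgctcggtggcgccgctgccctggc
In the IRF1 window the match began at -124. Members with no window in the table included HLA-E, OAS2, OASL, MX2, IRF7, NLRC5 and CIITA.

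The libraries held 69388544 to 90205244 counts. The 7 endothelial markers were all detected, among them CDH5 at 160 ± 37.5 RPKM and VWF at 68.0 ± 23.3 RPKM (SD, n = 8). RPKM here is CPM, the counts scaled to library size, divided by the length of the canonical transcript in kilobases. Of 9 leukocyte and antigen-presenting cell markers 8 were not detected, and the 9 together came to 3.79 ± 0.425 CPM (SD, n = 8, range 3.26 to 4.73). Libraries differed in how counts related to transcript length. The slope of a library's log2 deviations on each doubling of length was -0.21 in replicate 2, -0.10 in replicate 7 and -0.33 in replicate 8, and between 0.08 and 0.14 in the others. Short transcripts thus had relatively more counts in replicates 2 and 8. The authors' deposited CQN values (conditional quantile normalisation, log2 scale) are adjusted within each library for length and GC content, and are given beside CPM where this matters.

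At 1 CPM or more in all 8 libraries, 61 of the 79 members (77.2%) were detected, against 51.3% of all genes in the table. None of the 79 was at 0 in all 8 libraries. In bulk RNA, more cells with a transcript and more of it per cell cannot be told apart. The members together took 1.87% ± 0.447 of the scaled counts (SD, n = 8), from 1.36% in replicate 5 to 2.54% in replicate 8. Per length, the detected members had a median of 54.5 RPKM, against 11.4 RPKM for all detected genes with a length. Of the 61, 28 were among the highest 10% of detected genes and 50 were above the median gene. Antiviral effectors and class I chains stood high, receptors and kinases were intermediate, and class II genes were low or not detected.

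**Figure D1:**
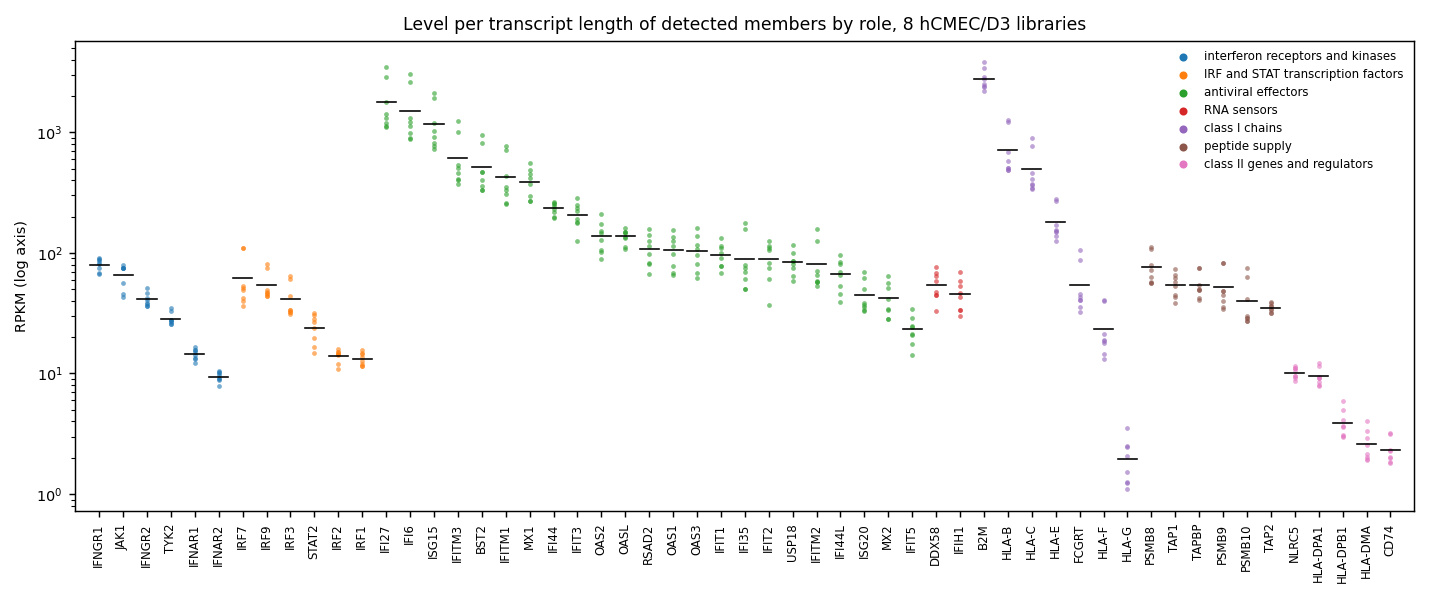
Level in RPKM (log axis) of the detected members by role, leaving out class I pseudogenes, antisense RNA and genes not reported here. Each point is 1 of 8 libraries and each bar the mean. B2M (mean 2791) and IFI27 (mean 1788) stand highest, and the class II genes and regulators at the right have means of 10.2 or less.

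All 6 receptor and kinase genes were detected. IFNGR1, the ligand-binding chain of the interferon gamma receptor (chromosome 6, 137518621 to 137540567, minus strand, 7 exons), ranged from 66.7 RPKM to 91.2 RPKM with a median of 82.4. Its partner IFNGR2 ranged from 36.4 to 50.9 RPKM with a median of 39.3. Each IFNGR1 value was above each IFNGR2 value. Within a library the log2 ratio of IFNGR1 to IFNGR2, taken on RPKM + 0.1 as for all ratios below, was 0.96 ± 0.18 (SD, n = 8). For the type I receptor, IFNAR1 ranged from 12.3 to 16.7 RPKM (median 14.7) and IFNAR2 from 7.92 to 10.5 RPKM (median 9.44), with a log2 ratio of 0.62 ± 0.22. The gamma receptor's IFNGR1 was above IFNAR1 by 2.45 ± 0.22 on the log2 scale, a size that fell to 0.91 without length and to 1.82 in CQN values. IFNGR2 overlaps TMEM50B and JAK1 overlaps RAVER2 in the annotation, so reads in the overlaps may have been shared or lost. IFNAR2, IFNAR1 and IFNGR2 lie within 208 kb on chromosome 21 (34602231 to 34809828).

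JAK1 was above TYK2 in each library. JAK1, which serves both receptors, ranged from 43.4 to 79.0 RPKM (median 74.8), and TYK2, which serves the type I receptor, from 25.7 to 34.8 RPKM (median 27.4). JAK1 was lowest in replicates 8 and 2, where TYK2 was highest, so that their log2 ratio was 0.39 in replicate 2 and 0.40 in replicate 8 but 1.56 in replicates 1 and 3. The mean ratio was 1.17 ± 0.51 (SD, n = 8). In the authors' CQN values, adjusted for length, it was 1.24 ± 0.14, so the gap between libraries was smaller on that scale. The 4 ratios named here, like the other 10 of the 14 gene pairs compared, had the same sign in 8 of 8 libraries. The exact permutation test (two-sided, flipping signs) gave p = 0.00781 and a Benjamini-Hochberg adjusted p = 0.00781, the smallest that 256 sign patterns can give. Any pair with the same sign in all 8 libraries gives this p, and the pairs were chosen with earlier results of these data known. The test therefore adds nothing to the count of signs.

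**Figure D2:**
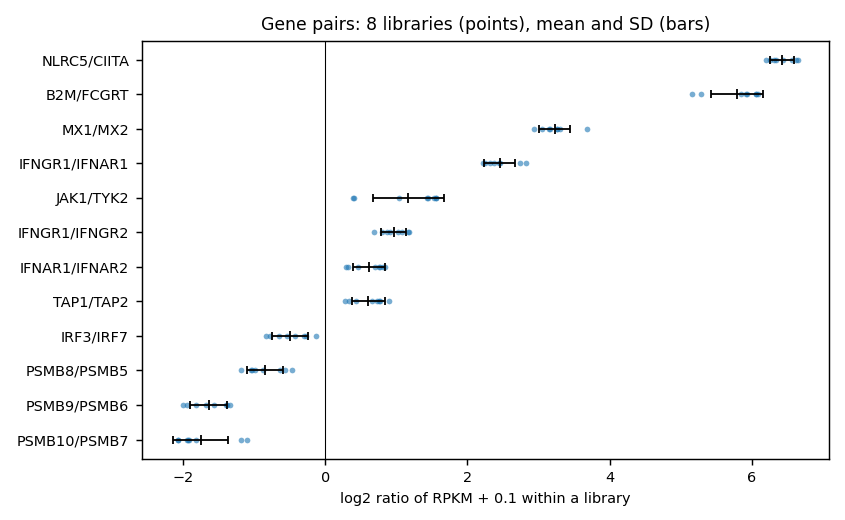
Within-library log2 ratios of RPKM + 0.1 for 12 of the 14 gene pairs. Points are the 8 libraries, and bars give the mean and SD. All 8 points of each pair lie on 1 side of 0, from -1.75 for PSMB10/PSMB7 to 6.42 for NLRC5/CIITA.

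Of the 10 transcription factors, 7 were detected. IRF7, which amplifies type I interferon production and is itself interferon-induced, was highest with 36.5 to 110 RPKM (median 50.1). IRF9, the DNA-binding part of the ISRE complex, ranged from 43.9 to 81.1 RPKM (median 47.1). IRF3, the constitutive factor that acts first after RNA sensing, ranged from 31.3 to 64.0 RPKM (median 33.5), and overlaps BCL2L12 in the annotation. All 3 were highest in replicates 2 and 8, and within a library IRF3 was below IRF7, with a log2 ratio of -0.49 ± 0.25 (SD, n = 8) that lay between -0.83 and -0.13. In CQN values this ratio was larger, at -1.23 ± 0.24. STAT2 had 24.0 ± 6.41 RPKM, IRF2, a repressor of IRF1 targets, between 10.9 and 15.9 RPKM, and IRF1 13.3 ± 1.57 RPKM (SD, n = 8). IRF4, IRF5 and IRF8, factors of lymphoid and myeloid cells, were not detected. The highest of them, IRF5, had 0.997 ± 0.187 CPM and reached 1 CPM in some libraries (range 0.686 to 1.32), so its call lay at the limit used.

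Antiviral effectors formed the largest role group, with 23 of 25 detected, and took 1.05% ± 0.254 of the scaled counts (SD, n = 8). Of the 23, 20 were among the highest 10% of detected genes per length. IFI27, a mitochondrial protein widely used as a marker of type I interferon exposure (chromosome 14, 94577079 to 94583033, plus strand, 5 exons), had 1422, 2870, 1137, 1323, 1108, 1192, 1767 and 3487 RPKM in replicates 1 to 8. IFI6, an inhibitor of viral replication and apoptosis (chromosome 1, 27992572 to 27998724, minus strand, 5 exons), had 1312, 2591, 890, 1125, 880, 987, 1219 and 3038 RPKM. ISG15, a ubiquitin-like modifier (chromosome 1, 948847 to 949919, plus strand, 2 exons), had 1024, 1929, 767, 907, 725, 808, 1186 and 2098 RPKM. In all 3 genes replicates 2 and 8 were high and did not overlap the other 6. The share of all genes with such a gap was not counted. In CPM 45.2% of all detected genes were highest in replicate 2 or 8, and 83.1% of those shorter than 1700 nt. In CQN values IFI27 and IFI6 were highest in replicate 2, but ISG15 was highest in replicate 1 (11.01) and lowest in replicate 8 (10.26). By mean RPKM these genes held places 10, 15 and 27 among the 11636 detected genes with a length.

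The effectors that follow act at different steps. IFITM1, IFITM2 and IFITM3 block the fusion of virus and cell, and lie with IFITM5 within 22.7 kb on chromosome 11 (298203 to 320914). Their means were 429 ± 205 RPKM for IFITM1, 80.6 ± 38.5 RPKM for IFITM2 and 617 ± 320 RPKM for IFITM3 (SD, n = 8). These genes are near-identical in parts, and how shared reads were divided was not given in the sources used here. BST2, which tethers budding virions to the cell, had 516 ± 234 RPKM. MX1, a GTPase that traps viral nucleocapsids, had 390 ± 106 RPKM, and its neighbour MX2 42.0 ± 13.4 RPKM. The log2 ratio of MX1 to MX2 was 3.22 ± 0.22 (SD, n = 8), a mean of 9.35-fold, and 2.64 in CQN values. RSAD2, which makes a chain-terminating nucleotide, had 108 ± 31.4 RPKM, and USP18, which removes ISG15 from proteins and damps the receptor, 83.3 ± 18.1 RPKM.

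The oligoadenylate synthetases and the IFIT genes were mostly highest in replicate 1, as were 11 of the 23 detected effectors in CPM. The other 12 effectors were highest in replicate 2 or 8. Among all detected genes these shares were 16.4% for replicate 1 and 45.2% for replicate 2 or 8. OAS1, OAS2 and OAS3 make the messenger that activates RNase L and lie within 105 kb on chromosome 12 (113344739 to 113449528). Their ranges were 65.8 to 154 RPKM for OAS1, 89.6 to 209 RPKM for OAS2 and 62.4 to 161 RPKM for OAS3, and OASL on the same chromosome ranged from 109 to 161 RPKM. OAS2, OAS3 and OASL were highest in replicate 1, and OAS1 was highest in replicate 2. IFIT proteins bind viral RNA, and the IFIT genes on chromosome 10 (91061706 to 91180759) span 119 kb. IFIT3 had 208 ± 50.6 RPKM, IFIT1 96.4 ± 21.8, IFIT2 88.6 ± 30.3 and IFIT5 23.2 ± 6.31 (SD, n = 8). All 4 were highest in replicate 1, and IFIT2 ranged from 36.8 RPKM in replicate 8 to 126 RPKM in replicate 1. IFIT1B, next to IFIT1 and close to it in sequence, was not detected (0.214 ± 0.0900 CPM), nor was the bone-specific IFITM5, which had 0 counts in 5 of 8 libraries.

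The remaining effectors were IFI44 (234 ± 27.3 RPKM), IFI35 (89.6 ± 48.8), IFI44L (66.8 ± 19.9) and the exonuclease ISG20 (44.9 ± 14.1; SD, n = 8 for each). IFI44 varied least of the group, between 196 and 266 RPKM, while IFI35 varied 3.54-fold, from 49.8 to 176 RPKM. The RNA sensors that lead to interferon production were both detected. DDX58, which encodes RIG-I, ranged from 32.7 to 76.9 RPKM (median 53.0), and IFIH1, which encodes MDA5, from 29.7 to 68.8 RPKM (median 45.1). Both were highest in replicate 1 and lowest in replicate 8.

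All 8 class I chain genes were detected. B2M (chromosome 15, 45003685 to 45010357, plus strand, 4 exons) ranged from 2181 to 3819 RPKM with a median of 2617, and held place 3 among detected genes with a length. HLA-B (chromosome 6, 31321649 to 31324989, minus strand, 8 exons) had 577, 1210, 484, 508, 509, 488, 684 and 1266 RPKM in replicates 1 to 8. HLA-C ranged from 341 to 889 RPKM (median 393). In both of these heavy chain genes replicates 2 and 8 lay above the other 6 with no overlap. How many of all genes had such a gap was not counted, and the shares that follow count only the highest library. Many other genes were also highest in replicate 2 or 8 in CPM, 45.2% of all detected genes and 83.1% of those shorter than 1700 nt. The HLA-B and HLA-C sequences are near-identical in long stretches and highly variable between people, so reads may have been lost or shared between them, and their order is uncertain.

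Among the other class I chains, HLA-E, which is read by natural killer cells, had 180 ± 59.6 RPKM. HLA-F had 23.2 ± 10.9 RPKM and HLA-G, the form typical of placenta, 1.96 ± 0.843 RPKM (SD, n = 8). FCGRT, the heavy chain of the neonatal Fc receptor that carries IgG through endothelium, ranged from 32.6 to 107 RPKM with a median of 42.0. B2M exceeded FCGRT by 5.79 ± 0.37 on the log2 scale, by 5.11 without length and by 4.33 in CQN values. Of the pseudogenes and antisense RNA, HLA-H had 21.0 ± 14.2 RPKM and HLA-J 7.46 ± 2.39 RPKM, while HLA-F-AS1 and HLA-L had 1.07 ± 0.130 and 1.04 ± 0.195 RPKM. Counts of HLA-H, HLA-J and HLA-L may come from the intact class I genes, and HLA-F and HLA-F-AS1 overlap on opposite strands, so these values are uncertain.

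The 6 genes that supply peptides to class I were all detected, at 35.1 to 75.7 RPKM. TAP1 and TAP2 form the transporter that moves peptides into the endoplasmic reticulum, and PSMB8 and PSMB9 are the immunoproteasome subunits that replace PSMB5 and PSMB6 under interferon. These 4 genes lie within 38.0 kb on chromosome 6 (32789610 to 32827628). PSMB8 ranged from 56.4 to 112 RPKM (median 67.9), PSMB9 from 33.9 to 82.2 RPKM (median 46.2), and PSMB10, which replaces PSMB7, from 27.3 to 74.9 RPKM (median 29.3). Each was below its constitutive counterpart in 8 of 8 libraries. The log2 ratios were -0.85 ± 0.26 for PSMB8 to PSMB5, -1.64 ± 0.26 for PSMB9 to PSMB6 and -1.75 ± 0.39 for PSMB10 to PSMB7 (SD, n = 8), corresponding to 1.80-, 3.12- and 3.37-fold lower levels. The constitutive genes themselves had 133 ± 22.3, 160 ± 53.6 and 127 ± 22.1 RPKM.

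TAP1 ranged from 38.5 to 73.1 RPKM (median 54.9) and TAP2 from 31.8 to 39.3 RPKM (median 35.0). Their log2 ratio was 0.61 ± 0.23 (SD, n = 8), but its sign depended on the length used. Without length it was -0.46, and in the authors' CQN values it was 0.23 with an exact permutation p adjusted over the pairs of 0.141. Which of the 2 subunits had more transcripts was therefore not settled by these data. TAPBP, which encodes tapasin, the bridge between transporter and class I, had 54.4 ± 13.4 RPKM. PSMB8 and TAP1 both overlap an annotated uncharacterised locus.

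Class II genes were at the low end. Of the 15 HLA-D genes 3 were detected. For class I, pseudogenes and antisense RNA were counted apart from the 8 chain genes, whereas no HLA-D gene was set apart. CD74 and NLRC5, which were grouped with the HLA-D genes, were also detected, while CIITA was not. HLA-DPA1 and HLA-DPB1, the chains of HLA-DP, had 9.51 ± 1.61 and 3.91 ± 1.04 RPKM, and HLA-DMA, a chain of the peptide exchanger, 2.62 ± 0.781 RPKM (SD, n = 8). HLA-DPA1 and HLA-DPB1 overlap on opposite strands. CD74, the invariant chain that blocks the class II groove until loading, ranged from 1.81 to 3.21 RPKM with a median of 2.15. The 15 HLA-D genes together came to 35.9 ± 7.63 CPM, against 5654 ± 1828 CPM for the 8 class I chain genes together. The library ranges of 28.6 to 50.3 CPM and 4165 to 8963 CPM were far apart. These sums hold unlike sets. The class I sum includes B2M (2632 ± 534 CPM) and FCGRT (81.8 ± 41.4 CPM), and the class II sum leaves out CD74. HLA-B alone had 1099 ± 506 CPM.

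Several HLA-DR and HLA-DQ genes, HLA-DRA among them, were close to what the depth could resolve. HLA-DOB was the highest undetected class II gene at 0.444 ± 0.0642 CPM, followed by HLA-DRB1 at 0.205 ± 0.108 CPM. HLA-DMB, HLA-DOA, HLA-DQB1, HLA-DRB5, HLA-DRB6, HLA-DPB2, HLA-DQA1, HLA-DQA2 and HLA-DQB2 were also not detected. HLA-DRA, the alpha chain gene of HLA-DR, which hardly varies between people, had 26 counts over all libraries and a mean of 0.0422 CPM, with 0 counts in 1 library. With a count of 0, the true level could be as high as 0.0665 to 0.0880 CPM depending on the library, taking 3 read pairs as the limit for counting error alone. HLA-DQA1, HLA-DQA2 and HLA-DQB2 had 0 counts in 6, 6 and 7 of the 8 libraries. The DRB and DQ genes do vary strongly, so there reads may also have been lost.

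**Figure D3:**
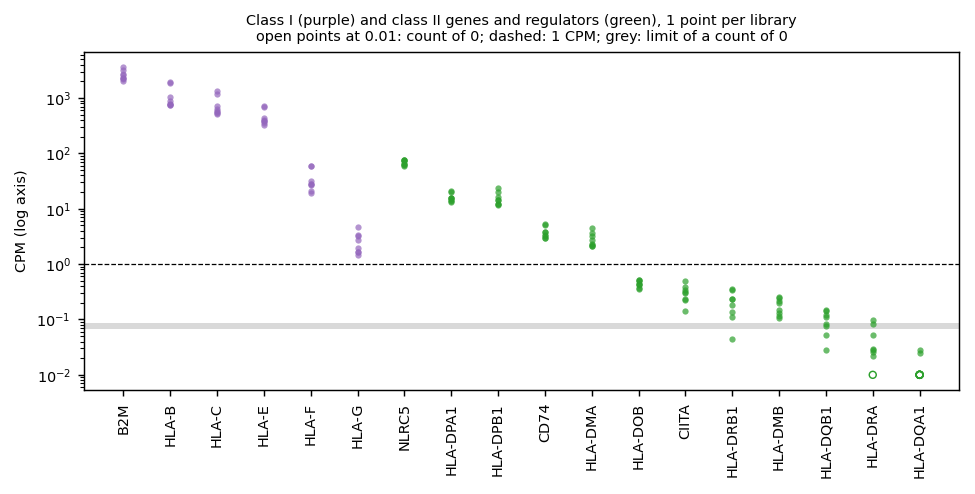
CPM (log axis) of class I genes (purple) and of class II genes and regulators (green), 1 point per library. Open points mark counts of 0, the dashed line 1 CPM and the grey band the level that a count of 0 allows. CPM is not per length, so the plot shows detection. Class II genes from HLA-DOB to the right lie below 1 CPM in all 8 libraries.

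The regulators of the 2 classes differed in the same direction. NLRC5, the transactivator of class I genes, ranged from 8.70 to 11.4 RPKM (median 10.1) and was among the steadiest members, with a coefficient of variation of 10.5%. CIITA, the transactivator of class II genes, was not detected, at 0.306 ± 0.110 CPM (SD, n = 8) and between 0.142 and 0.498 CPM. The log2 ratio of NLRC5 to CIITA was 6.42 ± 0.17 on RPKM + 0.1 and 3.45 on RPKM + 1. Its size therefore depends on the pseudocount, and the canonical CIITA transcript in the annotation, of 16061 nt, is longer than a coding transcript needs. Without length it was 7.45.

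The spread between libraries was compared with that of other genes at the same level. In an intercept-only edgeR model, 15 of the 61 detected members (24.6%) lay above the variation trend by a goodness-of-fit test with Benjamini-Hochberg adjustment over 11980 genes, against 4.66% of all genes tested. Among them were the effectors IFI27, IFI6, ISG15, IFITM1, IFITM2, IFITM3, BST2 and IFI35, the class I chains HLA-B, HLA-F and FCGRT, the pseudogene HLA-H, and IRF7 and PSMB10. The smallest adjusted p-values from this edgeR test were 7.89e-05 for HLA-H, 0.00221 for IFI6, 0.00289 for IFI35 and 0.00749 for IFITM3. Highest over lowest library was 4.53-fold for HLA-H, 3.45-fold for IFI6 and 2.62-fold for HLA-B. At an unadjusted p under 0.05 the count was 20, against 13.1% of all genes.

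In all 15 the 2 highest libraries were replicates 2 and 8, and 14 of the 15 had transcripts shorter than 1700 nt. Transcripts this short were found for 28 of the 61 detected members and for 2071 of the 11636 detected genes with a length. Neither property was counted among all genes above the trend, so whether it is particular to the members was not tested. Replicates 2 and 8 are the libraries in which short transcripts in general had relatively more counts. With each library's trend on length and GC content removed, 12 members were called (19.7%, against 6.41% of genes tested). Only HLA-H, IFI35, IFI6 and IFITM1 were in both sets, and the other 8 were HLA-DPB1, HLA-J, IFI44L, IFIT2, MX2, OAS1, OAS3 and STAT2. Without replicates 2 and 8, a setting chosen after seeing the data, 8 members were called (13.1%, against 2.75%), namely HLA-J, IFI44L, IFIH1, MX2, OAS1, OAS2, OAS3 and STAT2. None of the 15 was among them. This outcome was largely fixed in advance, since the 2 libraries left out were the highest of all 15, and no conclusion is drawn from it. Of the 8, 6 were among the 12 found with the length and GC trend removed. Leaving out single libraries also moved the count. Without replicate 5 it was 4 (6.56% of members, 3.44% of all genes), without replicate 2 it was 6 (3.26% of all genes) and without replicate 3 it was 7 (3.58%). It was 9 without replicate 4 (3.59%) or 6 (3.65%), 11 without replicate 8 (3.15%), 12 without replicate 1 (3.65%) and 13 without replicate 7 (4.09%). HLA-H, IFI35, IFI6 and IFITM3 were called each time. With no filter on low counts 12 of all 79 members were called, against 3.26% of genes, and BST2, HLA-B and PSMB10 were the 3 lost. With the dispersion trend fitted by DESeq2 34 members were called, including all 15, against 23.5% of all genes.

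**Figure D4:**
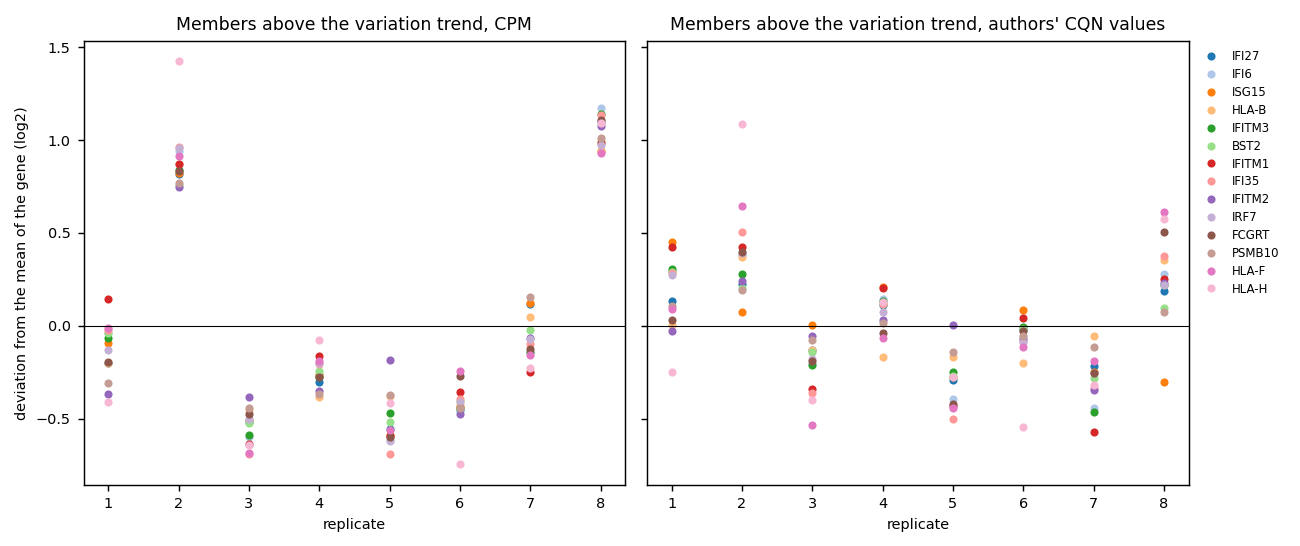
Log2 deviation from the gene's own mean in each of the 8 libraries for 14 of the 15 members above the variation trend, in CPM (left) and in the authors' CQN values (right). In CPM replicates 2 and 8 lie above 0 for the 14 genes. In CQN values, adjusted for length and GC content, replicates 2 and 8 stand out less, and replicates 5 and 7 lie near 0 or below it.

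The library order of all detected members was then set beside that of all genes. In CPM 41 of 61 members were highest in replicate 2 or 8, against 45.2% of all detected genes. The share followed length. Of the 28 members shorter than 1700 nt, 27 were highest in 1 of these libraries, as were 83.1% of all such genes. Of the 21 members longer than 3300 nt, 6 were highest there and 14 were highest in replicate 1, against 23.1% and 25.2% of all genes of that length. For all members together the share highest in replicate 1 was 31.1%, against 16.4% of all genes. The size of the deviations differed too. Short members had a median log2 CPM deviation of 0.75 in replicate 2, -0.05 in replicate 7 and 0.93 in replicate 8, against 0.34, 0.17 and 0.57 for all short genes.

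The authors' CQN values gave a different picture of the libraries. On this scale 33 of 61 members were highest in replicate 2 or 8 (41.0% of all detected genes), and 19 were highest in replicate 1 (10.2%). The lowest value was in replicate 5 or 7 for 45 of the 61 members (73.8%), against 26.9% of all detected genes. These 2 libraries were picked out after the values had been seen. In CPM, where length was not adjusted for, the lowest value was in replicate 5 or 7 for 29 of the 61 members (17.4% of all detected genes). The antiviral effectors had median log2 CQN deviations of 0.36 in replicate 1, 0.26 in replicate 2 and 0.22 in replicate 4, and of -0.33 in replicates 5 and 7. Class I chains had 0.39 in replicate 2 and 0.36 in replicate 8. The medians of all 11980 detected genes lay between -0.01 and 0.02.

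**Figure D5:**
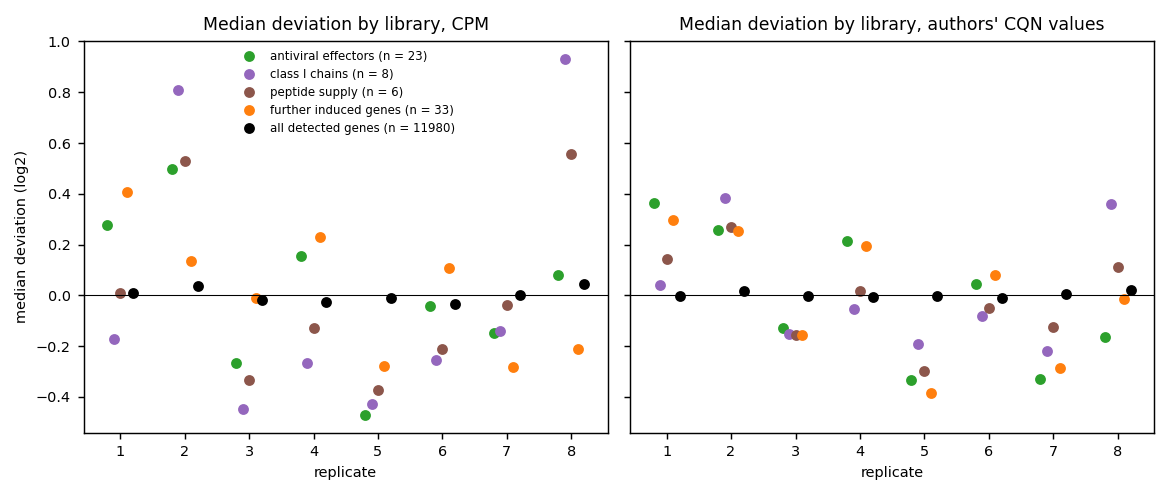
Median log2 deviation by library for the detected genes of 3 role groups, for further interferon-induced genes and for all detected genes, in CPM (left) and in the authors' CQN values (right). In CQN values the 4 coloured groups lie below 0 in replicates 3, 5 and 7, while all detected genes lie near 0.

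OAS1 shows this order in single values. Its CQN values in replicates 1 to 8 were 8.96, 9.01, 8.17, 8.81, 7.85, 8.55, 7.79 and 8.60. IRF7 had 8.68, 8.80, 8.23, 8.48, 7.97, 8.32, 8.15 and 8.62. In both genes replicates 1 and 2 were high and replicates 5 and 7 low. IFIT2, by contrast, was lowest in replicate 8 also in CQN values (7.73, against 8.40 to 9.06 in the others).

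Further genes of the pathway were counted as whole lists, which were chosen with earlier results of these data known. Of 10 sensors and adaptors 9 were detected, with ADAR, the RNA-editing enzyme with an interferon-induced form, at 106 ± 22.6 RPKM and MAVS, the mitochondrial adaptor, at 14.7 ± 3.40 RPKM (SD, n = 8). ZBP1, a sensor of left-handed nucleic acids, was not detected (0.207 ± 0.0948 CPM). Of 34 further induced genes 33 were detected, with a median of 38.5 RPKM. All 13 class I loading genes were detected, led by the chaperone CALR at 734 ± 135 RPKM. At the same limit 51.3% of all genes in the table were detected. In the edgeR test 1 of the 9 sensors and adaptors (EIF2AK2) and 4 of the 33 induced genes (DDX60, DDX60L, SAMD9 and SAMD9L) lay above the variation trend. These 5 were highest in replicate 1 and lowest in replicate 7 or 8, unlike the 15 members above the trend. Among all genes tested 4.66% lay above the trend. In CPM 16.4% of all detected genes were highest in replicate 1, and 25.2% of those longer than 3300 nt.

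None of 9 interferon genes was detected. Together they came to 0.984 ± 0.331 CPM (SD, n = 8), between 0.528 and 1.47 CPM by library. The largest part was IFNE, a type I interferon of epithelia, at 0.679 ± 0.328 CPM, and IFNB1, the interferon that most cells make first, had 0.271 ± 0.107 CPM. IFNG had 2 counts in 1 library, and IFNK and IL28B had 0 counts in all 8. IFNB1 had counts in all 8 libraries. Of 5 feedback genes 4 were detected. SOCS3, an inhibitor of JAK kinases, had 8.86 ± 3.39 RPKM, and its relative SOCS1 stayed below the limit at 0.836 ± 0.266 CPM.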

How the data were processed

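Per the labels' protocols, polyadenylated RNA libraries of hCMEC/D3 were prepared (TruSeq RNA Sample Prep Kit v2). The submitters' processing notes name CASAVA 1.9, TopHat2 2.0.6, HTSeq and hg19, and strand setting and annotation are not given in the sources used here. Per the file headers, the authors deposited raw counts per gene. All 186768 were even, so a read pair was taken as 2 counts. They also deposited CQN values, log2 by their range, for 64 of the 79 members. The table held 0 other columns of samples.

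CPM used TMM library sizes (edgeR 4.0.16, R 4.3.3). RPKM used the canonical, or else longest, transcript in GENCODE 44 lifted to GRCh37. The variation trend test was edgeR's goodness-of-fit test (gof) on the trended dispersion, at an adjusted p under 0.05, tested on simulated data. With 1 group, no groups were compared. Gene pairs used exact two-sided permutation by sign flips on log2(RPKM + 0.1), adjusted over 14 pairs. Alternatives used DESeq2 1.42.0, other filters and pseudocounts, CPM, CQN values, and leaving out libraries.

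Members, lists and pairs were chosen with earlier results of these data known. By rule, named genes are the 3 highest of each role, those above the trend, those of the pairs and the highest undetected gene of each role. Other members are named so that each is accounted for, outside the rule and with their values known. Intervals and limits cover counting error only. A few members and the pairs that hold them are not reported here by name.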

Additional observations from a re-analysis of the deposited data

How the results depend on the processing

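The count of members above the variation trend depended on the setting. It was 15 with all 8 libraries, 12 without a filter on low counts, 12 with the length and GC trend removed (4 of them among the 15), 34 with the dispersion trend fitted by DESeq2, 4 to 13 when single replicates were left out and 8 without replicates 2 and 8. The 15 members themselves were all called with DESeq2 size factors and with halved counts. The log2 ratio of TAP1 to TAP2 was 0.61, became -0.46 without length correction, and was 0.23 in the authors' CQN values, where it no longer passed the test. The size of several ratios also depended on length, and for some this is given beside them. Without length and in CQN values, IFNAR1/IFNAR2 was 1.20 and 0.45, against 0.62 on RPKM. IFNGR1/IFNGR2 was 1.25 and 1.14, against 0.96, and PSMB9/PSMB6 was -1.34 and -1.26, against -1.64. The other 13 pairs kept their direction and their side of the threshold under each alternative that could be run. CIITA has no CQN value, so that alternative was not run for NLRC5/CIITA. The 61 detected members became 66 at a minimum of 10 counts and stayed at 61 under the other settings. No paired analysis was possible because the libraries form 1 group. Depth limits statements on HLA-DRA, HLA-DQA1, HLA-DQA2, HLA-DQB2 and the interferon genes with 0 counts in most libraries, and the 8 libraries, of unstated origin, limit those on spread.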

Other observations

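Among the interferon-induced secreted and metabolic genes, levels were uneven. CXCL11 had 23.2 ± 5.24 RPKM and CXCL10 12.2 ± 3.69 RPKM (SD, n = 8), both ligands of CXCR3, a chemokine receptor of activated T cells. CXCL9, a ligand of the same receptor, was not detected. IDO1, a tryptophan-degrading enzyme, had 0.914 ± 0.112 RPKM. LGALS3BP, a secreted glycoprotein, and IFI16, a nuclear DNA sensor, were high at 120 ± 48.4 and 130 ± 19.5 RPKM. These genes were chosen from the list of 34 further induced genes after their values had been seen. The 33 genes of that list other than CXCL9 were all detected, among them GBP1, GBP2, GBP3, GBP4, GBP5, WARS and IFI30. A response to interferon gamma was not tested.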
